A study of Mus musculus with 42 samples.

Results

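The genes described here are the receptors through which a cell receives Wnt proteins: the Frizzled genes Fzd1 to Fzd8 and the co-receptors Lrp5 and Lrp6. They were chosen by gene symbol, and the 10 genes were measured by 26 probe sets, of 18194 genes and 34958 probe sets with a single gene symbol in all. The profiles come from 42 single retinal cells of CD1 mice, an outbred strain, taken on embryonic day 12.5 (E12.5, 11 cells), E13.5 (4 cells), E14.5 (2 cells), E15.5 (1 cell) and E16.5 (11 cells) and on postnatal day 0 (P0, 13 cells). All cells are untreated and carry no engineered allele, and all are labeled as retinal progenitor cells, a class that was given from the profiles after the cells had been picked. The class also holds 6 cells that the study takes to be in transition to neurons, namely A6 of E13.5, B1 of E14.5, C5 of P0 and, of E16.5, the cells D5, E5 and F1. A gene was called present in a cell when the highest signal of its probe sets reached 1000, on a linear scale that sets every array to the same target of 500. Neither litter nor animal is named for a cell, so each stage counts as 1 sample, stages are compared as descriptions with no test, and the intervals below cover counting error only.

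Wnt proteins are secreted, lipid-modified signals. A Frizzled receptor binds the Wnt protein at the cell surface. In the branch that stabilizes beta-catenin it does so together with Lrp5 or Lrp6, which recruit Axin to the membrane, while the planar cell polarity branch uses Frizzled receptors without these co-receptors. In the eye, Wnt signaling is known for roles in the pigment epithelium, in the ciliary margin at the rim of the retina and in the retinal vessels, where Fzd4 and Lrp5 respond to norrin.

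Between 1386 and 5253 genes were present per cell, with a median of 3034. Of the E16.5 arrays, 5 (J1, J2, J4, E8 and F1) stood apart in their 18 hybridization control probe sets, whose departure from the usual pattern had an SD of 0.644 to 0.667 on the log2 scale where the remaining 37 arrays reached 0.197 at most. These 5 arrays also showed more genes (median 4103) than the remaining 6 of that stage (median 2114.5), so receptor values of E16.5 are also given apart for them. Among 11 progenitor markers, Pax6 and Ccnd1 were present in 41 cells each, Vim in 40, Sox2 and Lhx2 in 34 each and Fgf15 in 32. Six3 was present in 27 cells, Six6 in 25, Nes and Rax in 15 each and Hes1 in 8. Each cell had 2 to 11 of the markers, with the low of 2 in E12.5 cell E5. Ccnd1 and Fgf15 were among the genes on which the study built its progenitor score, so their presence is not independent of the class. No pair of arrays was a copy of another, the rank correlation between arrays over all genes lying between 0.109 and 0.575.

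**Figure D1:**
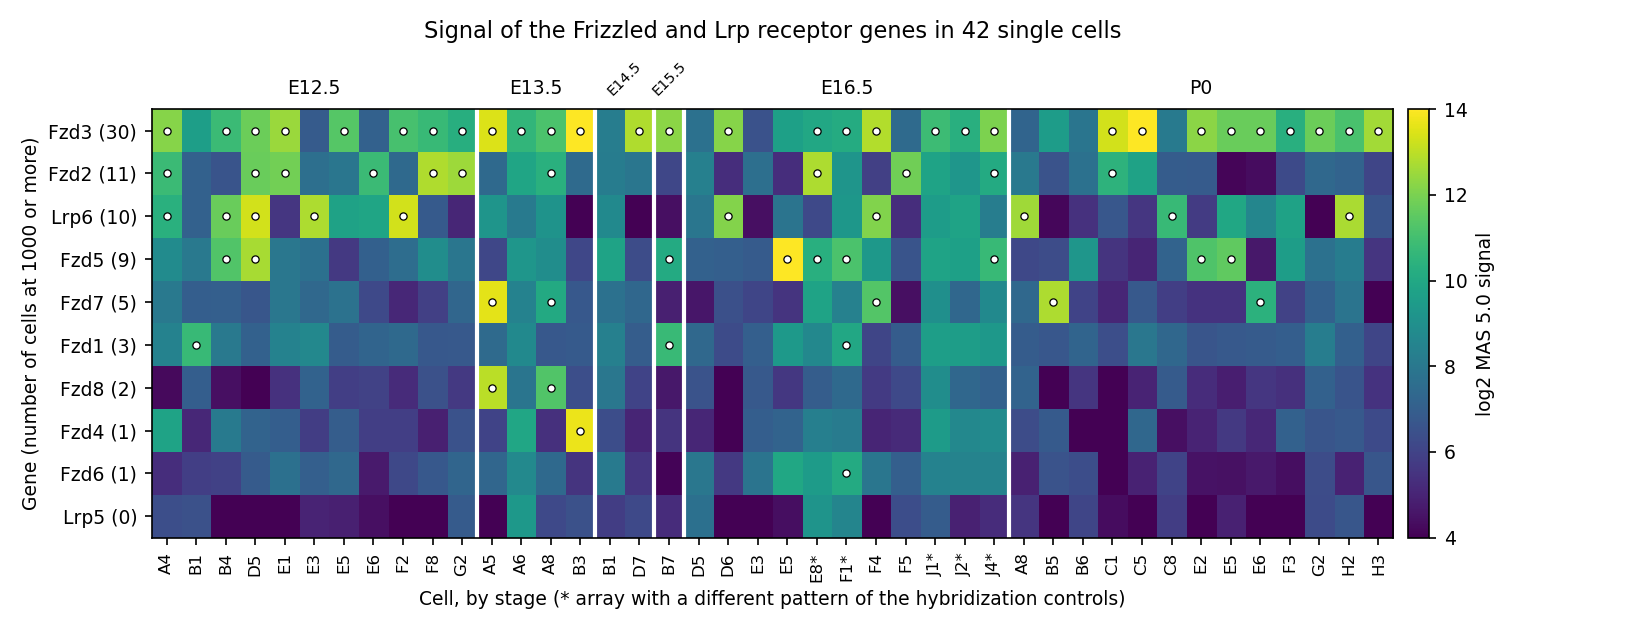
Signal of each receptor gene (rows, with the number of cells at 1000 or more) in each of the 42 cells (columns, ordered by stage), as the log2 of the MAS 5.0 signal, with colors clipped at 4 and 14. White dots mark signals of 1000 or more. Fzd3 carries 30 of the 72 dots and Lrp5 none.

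In the majority of cells at least 1 of the 8 Frizzled genes was present, while Lrp5 or Lrp6 was found in a minority. These shares are not like for like, since there are more Frizzled genes than co-receptor genes. Taken gene by gene, 62 of 336 combinations of a Frizzled and a cell were positive (18.5%, 14.4 to 23.0), and Fzd3 alone gave 30 of the 62. Of the other Frizzled genes, only Fzd2 (11 cells) was present in more cells than Lrp6 (10 cells). A Frizzled was present in 35 of 42 cells (83.3%, exact 95% interval 68.6 to 93.0) and Lrp6 in 10 cells (23.8%, 12.1 to 39.5), and Lrp5 was present in no cell. In all, 9 of the 10 genes were present in at least 1 cell, where 72.6% of all genes were. Only 3 of them, Fzd3, Fzd2 and Lrp6, were present in 10 or more cells, where 28.7% of all genes were. Of the 420 combinations of a receptor and a cell, 72 were positive (17.1%, 13.7 to 21.1), close to the 17.0% of positive combinations over all genes. Fzd3 made up 30 of these 72. Without it, 42 of 378 combinations were positive (11.1%, 8.13 to 14.7).

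Fzd3, a receptor known for axon guidance and planar cell polarity, was by number of cells the most common receptor, with 30 of 42 cells (71.4%, 55.4 to 84.3). At E12.5 its signal ran from 116 through a median of 1825 to 5838, with 8 of 11 cells at 1000 or more. The 4 cells of E13.5 gave 11226 (A5), 1514 (A6), 2294 (A8) and 16166 (B3), so that all of them were positive. At E14.5 it was 7270 in cell D7 and 299 in cell B1, and the E15.5 cell had 4873.

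At E16.5 the Fzd3 signal ran from 92.0 through 1143 to 7367, with 7 of 11 cells positive. All 5 of the arrays with the departing controls were positive, at 1019 to 4207. Of the other 6 cells of E16.5, 2 were positive, D6 at 4624 and F4 at 7367, with 830 as the next value. At P0 the signal ran from 151 through 3326 to 22861, with 9 of 13 cells positive and the highest value in cell C5. The stages overlap widely for this gene. The difference between P0 and E12.5 was -3.50 percentage points and that between E16.5 and E12.5 was -9.09 points, but the latter became -39.4 points without the 5 arrays.

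Fzd2, a receptor of both branches of the pathway, had the widest difference in its share of cells among E12.5, E16.5 and P0, the stages with more than 4 cells. It was present in 11 of 42 cells (26.2%, 13.9 to 42.0). At E12.5, 6 of 11 cells were positive (54.5%, 23.4 to 83.3), with signals of 1788 in A4, 3377 in D5, 3704 in E1, 1824 in E6, 7079 in F8 and 5963 in G2. The other 5 cells of E12.5 had 241 or less. Of the 6 positive cells, only F8 had more than 1 probe set of the gene at 1000 or more. At E13.5 the single positive cell was A8 at 1289, beside 947 in A6, 169 in A5 and 174 in B3, and the cells of E14.5 and E15.5 had 69.4 to 293.

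At E16.5, 3 of 11 cells were positive for Fzd2 (27.3%, 6.02 to 60.97), E8 at 6897, F5 at 3665 and J4 at 1113, of which E8 and J4 are on arrays with departing controls. At P0 it was positive in 1 of 13 cells (7.69%, 0.195 to 36.0), C1 at 1427, with 861 in C5 as the next value and a median of 121. The difference in the share of cells with Fzd2 was thus -46.9 percentage points for P0 against E12.5, and the signals of all 6 positive cells of E12.5 exceeded that of the highest P0 cell, by at least 361.

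Lrp6, the co-receptor that is phosphorylated on Wnt binding and then recruits Axin, was present in 10 cells. At E12.5, 5 of 11 cells were positive (45.5%, 16.7 to 76.6), with 1288 in A4, 3345 in B4, 10283 in D5, 6905 in E3 and 10271 in F2, and E6 at 944 and E5 at 865 lay just under the level. None of the 7 cells of E13.5 to E15.5 was positive, and their highest value was 592. At E16.5, cells D6 (4574) and F4 (4438) were positive, and the 5 arrays with departing controls had 74.4 to 902. At P0, cells A8 (6038), C8 (1726) and H2 (6770) were positive, with 983 in E5 and 865 in F3 just under the level. The positive cells of the 3 larger stages overlap in their signals.

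Lrp5, its close relative, was below 1000 in all 42 cells. By the exact interval, up to 8.41% of such cells could still have it at that level. Its highest signal was 642 in E13.5 cell A6 and its median 31.0. It is the only receptor here measured by a single probe set, and among the 9182 genes of a single probe set 42.3% were present in no cell.

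**Figure D2:**
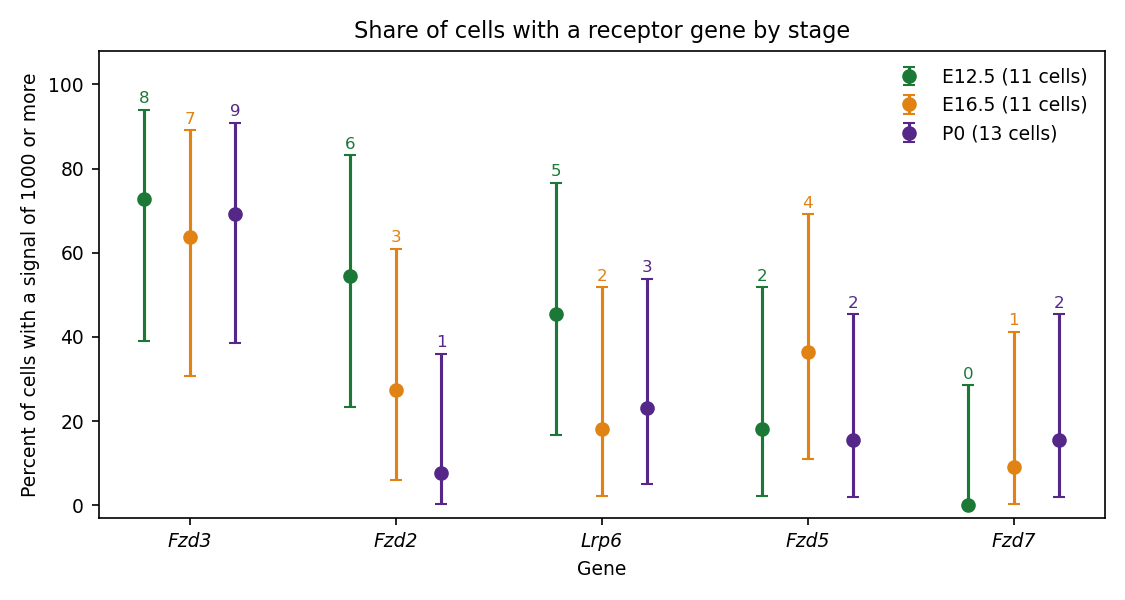
Share of positive cells (in percent, a signal of at least 1000) among those of E12.5, E16.5 and P0, for the 5 receptor genes found in the most cells. Points are shares, bars are exact 95% intervals for counting error only, and the number above each bar counts the positive cells. For Fzd2 there were 6 positive cells of 11 (E12.5), 3 of 11 (E16.5) and 1 of 13 (P0), with intervals that overlap.

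Across the stages with more than 4 cells, a difference of 25 percentage points or more in the share of cells was named, as a rule of size and not a test. From E12.5 to P0, Fzd2 was the only one of the 10 receptors with a share that much smaller, where 2.5% of all genes were, and no receptor had a share that much larger, where 7.13% of all genes did. Leaving out any single cell, the Fzd2 difference stayed between -54.5 and -42.3 points. From E12.5 to E16.5, Fzd2 and Lrp6 had smaller shares, by 27.3 points each, where 4.89% of all genes had a share that much smaller, and no receptor had a larger one, where 5.32% of all genes did. Both E16.5 differences were just past 25 points. That of Fzd2 fell short when any of its 6 positive E12.5 cells or any of its 8 negative E16.5 cells was left out, with a low of -22.7 points, and that of Lrp6 when any of its 5 positive E12.5 cells was left out, at -21.8 points. Without the 5 arrays with departing controls, the Lrp6 difference was -12.1 points (2 of 6 cells against 5 of 11), which ends its call, while Fzd2 was at -37.9 points and Fzd3 passed 25 points, at -39.4. From E16.5 to P0, no receptor reached 25 points in either direction, where 3.26% of all genes had a smaller and 7.42% a larger share. The Lrp6 difference between P0 and E12.5 was -22.4 points. It passed 25 points without any of the 6 negative E12.5 cells or any of the 3 positive P0 cells, with -28.8 points at the most.

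Fzd5, a receptor needed early in eye development, was present in 9 cells (21.4%, 10.3 to 36.8). The positive cells were B4 (2488) and D5 (6657) at E12.5, B7 (1115) at E15.5, E5 (64650), E8 (1276), F1 (2319) and J4 (1694) at E16.5, and E2 (2413) and E5 (3024) at P0. The value of E16.5 cell E5, a transitional cell, was 9.71 times that of the next cell. Of the 4 positive cells of E16.5, 3 were on arrays with departing controls, where the lowest Fzd5 signal was 815, while 5 of the other 6 cells of that stage were below 1000. All 9 positive cells were called by the same probe set, and the other probe set of the gene did not exceed 607.

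Fzd7 and Fzd8 were found together in a pair of E13.5 cells. Fzd7, which acts in the beta-catenin branch in many stem and progenitor cells, was present in 5 cells, at 12324 and 1069 in E13.5 cells A5 and A8, 2552 in E16.5 cell F4, and 6978 and 1373 in P0 cells B5 and E6. All 5 were called by the same probe set, and the other probe set of Fzd7 did not exceed 343. Fzd8, a close relative of Fzd5, was present at 8004 in A5 and at 2479 in A8, and its next value in any cell was 483. The Fzd8 values of A5 and A8 came from different probe sets, each at 1000 or more in that cell alone. Both cells also had Fzd3, and A8 had Fzd2.

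Some genes of the pigment epithelium were present in the same E13.5 cells. Mitf, the pigment cell transcription factor, had 5104 in A5 and 2598 in A8 and was present in 1 other cell, and Otx1, a homeobox gene of the optic cup, had 7377 and 3751 and was present in no other cell. Pmel, a melanosome protein, had 24440 in A5. In all, 3 and 2 of 8 pigment epithelium markers were present in them, and the list was positive in 10 of its 336 combinations over the 42 cells. P0 cell C1, which had neither Fzd7 nor Fzd8, also had 2 of these markers. The summed signal of the list was 37156 in A5 and 6572 in A8, and cells with neither gene reached 11850. Lens markers numbered 1 in A5 and 2 in A8 of 8, fewer than the 5 in E13.5 cell A6 and the 6 in E14.5 cell D7, which had neither gene. The other cells with Fzd7, E16.5 F4 and P0 B5 and E6, had no pigment epithelium and no lens marker. Whether these other cell type markers have a part in the Fzd7 and Fzd8 signals was not tested. Wnt genes were positive in 15 combinations over all cells, of which A5 held 3, Wnt4 at 6143, Wnt7b at 14664 and Wnt8b at 3461. Wls, the carrier of Wnt proteins to the cell surface, was present in A5 alone, at 8954. Lef1, a transcription factor that partners beta-catenin, was present in 3 cells, with its highest signal, 3275, in A5, and Tcf7l1, of the same family, also had its highest signal, 14752, there.

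The remaining Frizzled genes were found in 1 to 3 cells each. Fzd1 was present in E12.5 cell B1 (1720), E15.5 cell B7 (1777) and E16.5 cell F1 (1027). Fzd4, the norrin receptor, was present only in E13.5 cell B3, at 13393, where its next value in any cell was 979. A single probe set called it, and the others of the gene did not exceed 722 in any cell. Cell B3 had none of the 8 endothelium markers. Wnt5b was present in the same cell at 5372. Fzd6, known from hair follicle polarity, was present only in E16.5 cell F1, at 1104, with 995 in E16.5 cell E5 as the next value.

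E16.5 cell F1 held 4 receptors, all at 2319 or less: Fzd1 and Fzd6 as above, Fzd3 at 1143 and Fzd5 at 2319. It had the highest number of genes present of all cells, 5253, and is on an array with departing controls. It is also a transitional cell. In it 3 of 8 endothelium, 3 of 9 mesenchyme, 5 of 10 amacrine and horizontal cell, 4 of 11 ganglion cell and 2 of 10 photoreceptor markers were present, with 1 of 8 each for pigment epithelium and for blood and microglia. Several of these markers had their highest signal of any cell in F1 and were still near the level. They were Tek (1006), Foxc1 (1021), Pecam1 (1046), Pdgfra (1168), Gnat1 (1183) and Hba-a1 (1566). The ganglion cell marker Rbpms, also highest in F1, was at 56345. The cell also had 5 of the 15 positive combinations of a Wnt gene and a cell, namely Wnt3a, Wnt6, Wnt9a, Wnt10a and Wnt11, all between 1099 and 1813. The part of these in its receptor signals was not tested. Without this cell, Fzd6 was present in no cell and 8 of the 10 receptors were present in any.

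The number of receptors per cell had a median of 1.5 and ran from 0 to 4. No receptor was present in 4 cells, 1 in 17 cells, 2 in 11, 3 in 7 and 4 in 3 cells, which were E12.5 D5, E13.5 A8 and E16.5 F1. Cells of E12.5 had a median of 2 receptors (range 1 to 4), those of E13.5 a median of 2.5 (1 to 4), and those of both E16.5 (0 to 4) and P0 (0 to 2) a median of 1. No cell of P0 had 3 or more (exact upper limit 24.7%), against 3 of 11 at E12.5 (27.3%, 6.02 to 60.97) and 4 of 11 at E16.5, of which 3 were on the 5 arrays with departing controls and 1 among the other 6. Of the receptor and cell combinations, 20% were positive at E12.5 (22 of 110, 13.0 to 28.7), 17.3% at E16.5 (19 of 110, 10.7 to 25.7) and 13.1% at P0 (17 of 130, 7.81 to 20.1), with intervals that overlap. Within E16.5, it was 24% on the 5 arrays with departing controls (12 of 50) and 11.7% on the other 6 (7 of 60).

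Cells with more receptors also had more genes present in all. The median number of genes present was 2138 in the cells with no receptor, 2915 with 1, 3063 with 2, 3357 with 3 and 4537 with 4. Over the 42 cells, Pearson's r between both counts was 0.401 and Spearman's rho 0.369, and over the 37 arrays with the usual controls they were 0.357 and 0.367. These are descriptions, since the points share stages and the receptors are themselves among the genes counted.

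**Figure D3:**
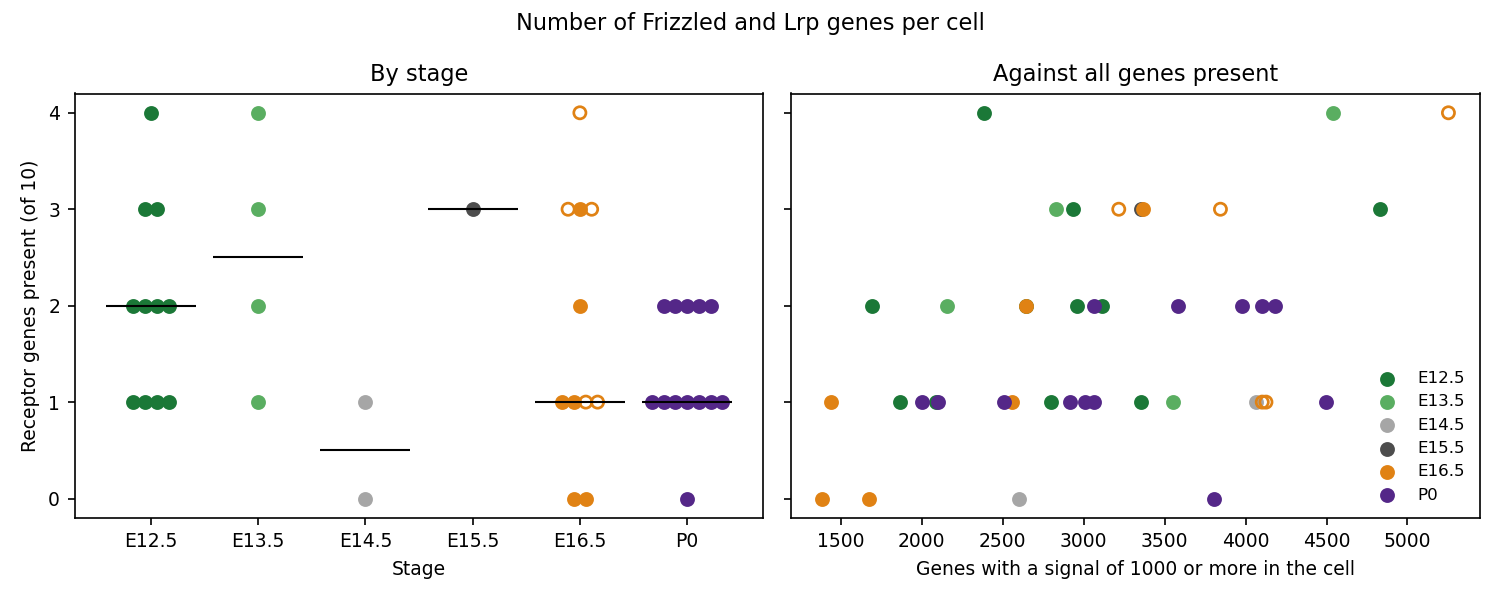
Number of the 10 receptor genes present in each cell, by stage (left, lines at the median) and against the number of all genes present in the cell (right). Each point is a cell, colored by stage, and open points are the 5 E16.5 arrays with departing hybridization controls; the 13 cells of P0 have 0 to 2 receptors.

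The cells without any receptor were E14.5 B1, E16.5 D5, E16.5 E3 and P0 B6. B1 and D5 are transitional cells, so that 2 such cells remain without them, and the number depends on the level, with 2 cells at 500, 11 at 2000 and 24 at 5000. In these 4 cells, 3 to 9 of 11 retinal ganglion cell markers were present, with a median of 6.5 and a summed signal of 28403 to 162183. The median was 2 in cells with 1 receptor, 1 with 2, 1 with 3 and 2 with 4. The ranges overlap, with up to 8 markers in a cell with 2 receptors, and the summed signal reached 381383 in a cell with 1 receptor. The 12 cells without Fzd3 had a median of 4 ganglion cell markers (range 0 to 9) and the 30 cells with it a median of 1 (0 to 8). The cell with the summed signal of 381383 had Fzd3. The part of these markers in the receptor counts was not tested. Beta-catenin itself (Ctnnb1), the transducer of the pathway, was present in 41 of the 42 cells.

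The receptors occurred in 20 different combinations, of which 13 were seen in a single cell. Fzd3 alone was found in 9 cells, Fzd2 with Fzd3 in 4, Fzd3 with Lrp6 in 3 and Lrp6 alone in 3. At least 2 Frizzled genes were present in 18 cells. Of the 11 cells with Fzd2, 9 had Fzd3, and of the 9 cells with Fzd5, 8 had it. Among all cells, 30 of 42 had Fzd3. Of the 12 cells without Fzd3, 5 had another Frizzled, 3 had Lrp6 only and 4 had none.

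A Frizzled and the co-receptor Lrp6 were present together in 7 of 42 cells (16.7%, 6.97 to 31.4). They were A4, B4, D5 and F2 at E12.5 (4 of 11 cells, 36.4%, 10.9 to 69.2), D6 and F4 at E16.5 (2 of 11) and H2 at P0 (1 of 13). Fzd3 was in all 7 of them, and so in 7 of the 10 cells with Lrp6, against 30 of all 42 cells. In E12.5 cell E3 and P0 cells A8 and C8, Lrp6 was present with no Frizzled. Of the 35 cells with a Frizzled, 28 had no co-receptor at this level, as had 32 of all 42 cells. In cell D5 of E12.5 the Lrp6 signal was the highest of the series and 3 Frizzled genes were present with it, at 3377 for Fzd2, 3426 for Fzd3 and 6657 for Fzd5.

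Many of the positive values lay near the level that defines presence. Of the 72, 25 were below 2000 and 22 were 5000 or more, and 37 further values lay from 500 to below 1000, 16 of them on the 5 arrays with departing controls. Just inside the level were Fzd3 in E16.5 cell E8 (1019), Fzd1 in F1 (1027) and Fzd7 in E13.5 cell A8 (1069). Just outside it were Fzd6 in E16.5 cell E5 (995), Lrp6 in P0 cell E5 (983) and Fzd4 in E13.5 cell A6 (979).

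The number of probe sets differs between the receptors, and each further probe set gives the highest value another chance to reach the level. All positive genes have several probe sets, and 63 of the 72 positive values rested on a single probe set, the others of the gene being below 1000. Fzd3 has 6 probe sets. A single one of them was at 1000 or more in 27 of its 30 cells, in 22 of them by itself, and taken alone it would give 27 cells. Genes with 6 or more probe sets were present in a mean of 43.8% of cells (394 genes), those with 3 in 26.3%, those with 2 in 18.9% and those with 1 in 9.85%. With the mean of the probe sets in place of the highest, Fzd3 was present in 9 cells. Fzd2 was called by 3 probe sets, in 7, 4 and 2 cells, of which 7, 2 and 0 by that probe set alone. The first thus shared no positive cell with the others. With 1 probe set per gene, the Fzd2 difference between P0 and E12.5 was -45.5 points.

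The receptors were then set beside the rest of the pathway, with lists of ligands, other receptors, regulators and downstream genes. The list of ligands held 19 Wnt genes and Ndp, which codes for norrin. Of the 19 Wnt genes, 10 were present in any cell, none in more than 3 cells (Wnt7b), and 15 of 798 combinations were positive (1.88%), of which 7 were on the 5 arrays with departing controls. A Wnt gene was present in 8 cells, 7 of which had a Frizzled, as had 35 of all 42 cells. Ndp was present in E15.5 cell B7 and E16.5 cell F4, neither of which had Fzd4, and with it 17 of 840 combinations were positive (2.02%, 1.18 to 3.22). Of the genes for ligand secretion, Porcn, which adds the lipid, was present in 4 cells and Wls in 1. Other Wnt receptors were positive in 9.52% of combinations (7 genes), with Ryk, an atypical receptor kinase, in 17 cells, Ror1 in 5 and Tspan12 in 4, Fzd10 in 1 and Fzd9 in none.

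The lists of receptor regulators and of secreted Wnt inhibitors held a few common genes, while the median gene of each list was present in 1 cell. Lgr4, a receptor for R-spondins, was present in 29 cells, Kremen1, a receptor for Dkk proteins, in 15, and Znrf3, a ubiquitin ligase that removes Frizzled from the surface, in 6, as was Apcdd1, a membrane inhibitor of Wnt. Over the 11 regulators measured of 13, 12.8% of combinations were positive, and over the 13 secreted inhibitors 15.8% were. Over all genes it was 17.0%. Of the 13 genes listed as secreted inhibitors, Dkk3, a divergent Dickkopf protein, was present in 40 cells, Sfrp2 in 29 and Sfrp1 in 13. The last pair code for soluble proteins with a Frizzled-like Wnt binding domain. Whether Dkk3 inhibits Wnt in these cells was not tested. Sfrp2 was present in 26 of its 29 cells together with a Frizzled, which 35 of all 42 cells had.

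Downstream, the 16 transducers were positive in 38.4% of combinations, led by Ctnnb1 in 41 cells and the casein kinases Csnk1a1 in 34 and Csnk1d in 27. The Tcf factors and their partners (7 measured of 8) were positive in 22.4%, with Pygo2 in 21 cells, Tcf7l1 in 16 and Tcf7l2 in 13. Of 5 feedback targets, Nkd1 was present in 11 cells, Tnfrsf19 in 2 and Axin2, the best known readout of the beta-catenin branch, in 1. The 8 planar cell polarity genes were positive in 22.3%, with Scrib in 23 cells, Celsr2 in 21 and Vangl2 in 17. Other members of the family of Lrp5 and Lrp6, the LDL receptors (10 measured of 11), were positive in 14.3%, with Vldlr and Lrp1 in 14 cells each and Lrp8 in 9.

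**Figure D4:**
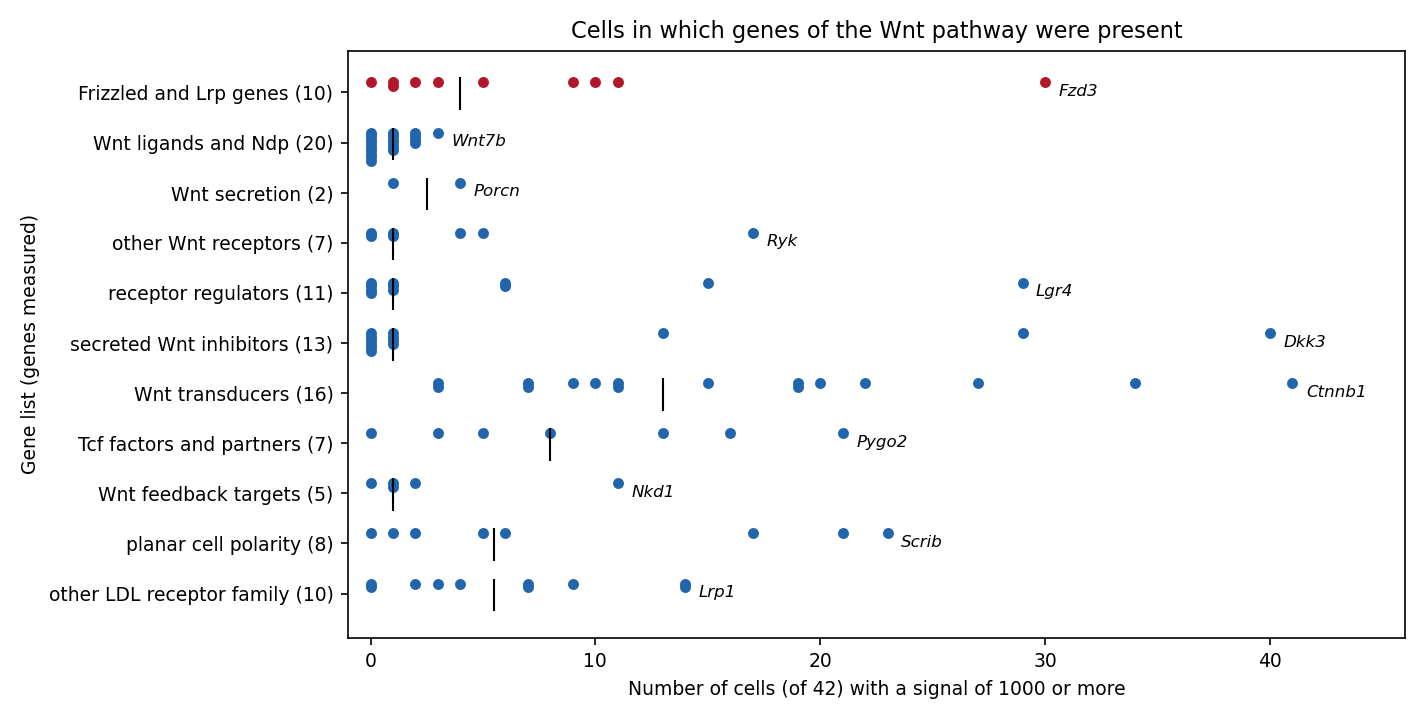
Number of cells, of 42, in which each gene of a list was present at 1000 or more. Each point is a gene, points at the same number are stacked, vertical lines are list medians and the gene found in the most cells is named; the median receptor gene was in 4 cells and the median ligand, with Ndp (norrin) among them, in 1.

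Of the 89 other Wnt pathway genes measured, 3 had a smaller and 4 a larger share of cells at P0 than at E12.5 by 25 points or more. Among all genes, 2.5% had a smaller and 7.13% a larger share. With counts this small, the genes below are listed as descriptions. Fzd2 thus stands beside Sfrp2, Csnk1d and Tcf7l1 on the smaller side. Sfrp2 had the widest difference of these, found in all 11 cells of E12.5, in 9 of 11 of E16.5 and in 2 of 13 of P0, which is -84.6 points for P0 against E12.5. Like Ccnd1 and Fgf15, Sfrp2 was among the genes on which the study built its progenitor score, so its presence is not independent of the class. Tcf7l1, which acts mainly as a repressor, went from 5 of 11 to 1 of 13 cells (-37.8 points) and Csnk1d from 8 of 11 to 5 of 13 (-34.3 points). The larger shares at P0 were those of Kremen1 and Dvl2, a scaffold that binds Frizzled, each with 2 of 11 and 8 of 13 cells (43.4 points), Apc, of the complex that destroys beta-catenin, with 4 of 11 and 10 of 13 (40.6 points), and Csnk1g2, of the kinase family that phosphorylates Lrp6, with 5 of 11 and 10 of 13 (31.5 points). Between E12.5 and E16.5, 4 of the 89 genes were on each side, where 4.89% of all genes had a smaller and 5.32% a larger share. On the smaller side were Lgr4 (10 and 4 of 11 cells, -54.5 points), Ryk (7 and 2 of 11, -45.5 points), Csnk1g3 and Tcf7l2 (5 and 2 of 11 each, -27.3 points). On the larger side was Axin1 (1 and 5 of 11, 36.4 points). At 27.3 points each, it was joined by Znrf3 (0 and 3 of 11), Bcl9l (1 and 4 of 11) and Celsr2 (4 and 7 of 11). From E16.5 to P0, 6 of the 89 genes had a smaller and 8 a larger share, where 3.26% and 7.42% of all genes did. Among the larger were Csnk1g3 (8 of 13 cells at P0, 43.4 points), Lgr4 (9 of 13, 32.9 points) and Ryk (6 of 13, 28.0 points). The low shares of these genes at E16.5 thus did not continue to P0. For these pathway genes, E16.5 is not split by the arrays with departing controls. The highest signal of Bcl9l, 1383, was on such an array, that of cell J4.

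The other Wnt pathway genes present in a cell numbered 7 to 27 of the 89, and the stage medians were 12 (E12.5), 15 (E16.5) and 13 (P0). The highest numbers were 27 in E12.5 cell A4, which had 3 receptors and 4828 genes present, and 26 in E16.5 cell F1.

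For each receptor in 10 or more cells, the genes found in most nearly the same cells were named by the Jaccard index, the cells with both genes over those with either, among 5227 other genes in 10 or more cells. For Fzd3 they were the proteasome genes Psmc2 (29 of 35 cells), Psma5 (26 of 32) and Psmc6 (29 of 36), and a gene in all cells would reach 30 of 42. For Fzd2 they were Cmtm3 (9 of 16), Oser1 (9 of 17) and AW549877 (10 of 20), and for Lrp6 they were Phf20 (10 of 18), Cep120 (8 of 18) and Zmat3 (6 of 14). Every one of the 10 cells with Lrp6 thus had Phf20, a chromatin reader, which was also present in 8 other cells. Such likeness is a description over 42 cells that share stages and depth.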

How the data were processed

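Each cell was measured on 1 Affymetrix mouse 430 2.0 array after papain dissociation of the retina, reverse transcription and 35 cycles of PCR, with 10 micrograms of cDNA labeled. The authors used MAS 5.0 for the deposited intensity signals, which are linear and relative to the whole array, since global scaling brought each array to a target of 500. Amplification can lose rare mRNAs, so a gene below the level may still be expressed. Of 45101 probe sets, 34958 with a single gene symbol in the platform annotation were used, 932 had several symbols and 9211 were unnamed here. The RefSeq table held the gene identifier of 34754 of those listed. The genome build behind the platform annotation is not given in the sources used here, and no coordinates are printed.

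The value of a gene was its highest probe set, present at 1000 or more, the background level stated in the study's methods. Levels were not compared between genes, since probes differ in brightness. Shares have exact (Clopper-Pearson) 95% intervals for counting error only. Cells are not replicates, so no test was made and no p-value computed. The named genes were all 10 receptors, the 3 genes most like each receptor found in 10 or more cells, the 3 genes in the most cells of each other Wnt list, the progenitor markers, the leading genes of other marker lists, and others only where a result turns on them. The receptors and lists were chosen with earlier results of these data known. Gene lists covered the Wnt pathway and markers of retinal, lens, pigment epithelium, vessel, blood and mesenchyme cells. Alternatives were presence levels of 500, 2000 and 5000, the mean of the probe sets, 1 probe set per gene, quantile normalization, the 2000 highest genes of each cell, leaving out each cell, the transitional cells or the 5 arrays with departing controls. The scripts were tested on simulated data and used Python 3.11.15, pandas 2.3.3, NumPy 2.4.6, SciPy 1.17.1 and matplotlib 3.10.9.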

Additional observations from a re-analysis of the deposited data

How the results depend on the processing

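No paired analysis was possible because no result comes from a test and cell numbers pair no cells across stages. The share of positive receptor and cell combinations, 17.1%, was 26.0% at a presence level of 500, 11.2% at 2000, 5.24% at 5000, 8.81% with the mean of the probe sets and 9.76% with the 2000 highest genes of each cell. The median number of receptors per cell was 0 at a level of 5000. The number of cells with both a Frizzled and an Lrp, 7, was 18 at 500, 1 at 5000, 3 with the mean of the probe sets and 4 with the 2000 highest genes. Receptors with a share of cells smaller by 25 points or more at P0 than at E12.5, 1, numbered 2 at 500, 0 at 5000 and 2 after quantile normalization, where Lrp6 joined Fzd2 at -31.5 points. The Fzd2 difference stayed past 25 points except at 5000, where it was -18.2 points. Receptors with a smaller share at E16.5 than at E12.5, 2, numbered 0 at 500, at 2000, with the mean of the probe sets, with the 2000 highest genes and without the transitional cells, and 1 at 5000. Without the 5 arrays the number was again 2, but they were Fzd2 (-37.9 points) and Fzd3 (-39.4 points), with Lrp6 at -12.1 points. Cells with no receptor, 4, numbered 2 at 500, 11 at 2000, 24 at 5000, 14 with the mean of the probe sets, 13 with the 2000 highest genes and 2 without the transitional cells. At 500, 4 receptors had a larger share at E16.5 than at E12.5 and 4 a smaller one at P0 than at E16.5. The latter number was 1 without the transitional cells. A receptor had a larger share at P0 than at E16.5 at 2000 (1 gene, Fzd3 at 34.3 points) and without the 5 arrays (1 gene, Fzd3 at 35.9 points). Leaving out each cell in turn gave 8 to 9 receptors present in any cell, 16.6% to 17.6% positive combinations, a median of 1 to 2 receptors, 6 to 7 cells with a Frizzled and an Lrp, 1 to 2 receptors smaller at P0 than at E12.5, 0 to 2 smaller and 0 to 1 larger at E16.5 than at E12.5, and 0 to 1 smaller at P0 than at E16.5. The cause of these differences was not tested. No depth in reads exists for arrays, and the 42 cells limit the precision of every share.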
